A study of Mus musculus with 24 samples.

Results

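The unfolded protein response and the folding machinery of the endoplasmic reticulum (ER) were followed through 35 genes in mouse liver, chosen by name from a list of stress sensors, transcription factors, chaperones, folding enzymes, degradation factors and translocation subunits. All 35 were found among the 43629 genes in the files, and all 35 were among the 12261 genes tested, those whose TPM (a level normalized for transcript length and depth) averaged 1 or more. Wild-type mice of the inbred strain C57BL/6 gave livers of 2 ages, about 4 months (young) and about 19 months (old). No treatment or altered allele is named for any group. At each age, polyadenylated RNA was sequenced at ZT2, ZT6, ZT10, ZT14, ZT18 and ZT22, where zeitgeber time (ZT) is hours after lights on, with 2 replicate libraries per age and time and 24 libraries in all. The study's title asks how rhythms of liver gene expression differ between young and old mice. Its design text places the collection over 2 days, and nothing in the labels says whether a replicate number is a day or whether replicates are separate animals, so p-values measure the spread between these libraries, which may be technical.

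Depth, worked out from the deposited coverage, was 8.70 to 13.7 M reads of 50 bases per library, and levels are TPM scaled between libraries (scaled TPM). The tissue label was borne out by hepatocyte markers: 8 such genes summed to 77330.1 to 110185 scaled TPM in every library, and albumin (Alb) was at 51878.8 or more. Markers of other cells differed. The summed level of 8 plasma cell markers was 14.9 to 63.3 in young and 124 to 659 in old libraries, 4 of the 5 tested being higher in old, and Mzb1 was listed at 0 in 9 libraries. The young ZT18 replicate 2 library held 3933 scaled TPM of 10 pancreatic acinar cell markers, against at most 13.8 in any other, and the old ZT14 replicate 1 library had 3.42% mitochondrial RNA, where the others had 8.74% or more. Results are therefore also given without these 2 libraries, a choice made after seeing the data. Both old ZT10 libraries stood apart in inflammation: acute phase genes summed to 35063 and 13970.3 (old median 9079), neutrophil markers to 104 and 137 (median 28.0), and macrophage markers to 457 and 689 (median 317). In whole tissue, fewer cells of a type and less RNA per cell cannot be told apart.

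The unfolded protein response adjusts the folding capacity of the ER to its load of secretory protein, which in hepatocytes is mainly plasma protein. Unfolded proteins are sensed by IRE1 (Ern1), PERK (Eif2ak3) and ATF6, which act through the transcription factors XBP1, ATF4 and cleaved ATF6. Their targets include BiP (Hspa5) and other chaperones, disulfide isomerases, and the channel and ubiquitin ligase that export misfolded proteins for degradation. ATF6 and XBP1 are known to act on the ER stress response element (ERSE), which is made of CCAAT, 9 further bases and CCACG.

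The ERSE was searched by its letters on both strands in windows from 250 bases before to 50 bases after the start of each gene (RefSeq, GRCm38.p6). Of 29 members with a window, 8 (27.6%) held it: Calr, Canx, Creld2, Dnajc3, Hsp90b1, Hspa5, Pdia6 and Syvn1. Over all 27025 genes with a window, 37 (0.137%) held it. The shorter ERSE-II, ATTGG, 1 further base and CCACG, was in Dnajb11 and Herpud1 and in 0.0444% of all genes. Both elements share the letters CCACG, which also overlap the reverse complement of the UPRE (TGACGTGG), a site bound by XBP1 and ATF6 that was in 0 of the 29 members and in 0.714% of all genes. The amino acid response element that ATF4 and CHOP bind (TGATG, 1 further base and AA) was in Herpud1 alone (3.45% of members, 4.51% of all genes), and the E-box CACGTG, which the circadian clock uses, was in Calr, Dnajb9, Fkbp11 and Ssr1 (13.8%, against 8.09%). Windows were not found for Atf6, Derl1, Hyou1, Manf, Sec61a1 and Ssr2. A match is a description of the letters and not a measured binding site.

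Stretches from 7 members are shown because they hold the element and because the levels of these genes carry the results that follow, among them wide ranges over the day (Creld2, Syvn1 and Hspa5) and Canx, whose level did not pass the test of time. Each runs 5′ to 3′ on the gene's own strand and ends before the start site of the RefSeq window. For Hspa5 that site is 120 bases downstream of the gene's start in the deposited files, so its stretch lies inside the gene as those files draw it. Capitals mark the whole ERSE, or the ERSE-II in Herpud1. Matches on the opposite strand begin with CGTGG and end with ATTGG.
Hspa5 (chr2:34772005-34772063, plus strand): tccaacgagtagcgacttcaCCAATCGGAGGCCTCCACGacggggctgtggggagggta
Hsp90b1 (chr10:86705513-86705676, minus strand): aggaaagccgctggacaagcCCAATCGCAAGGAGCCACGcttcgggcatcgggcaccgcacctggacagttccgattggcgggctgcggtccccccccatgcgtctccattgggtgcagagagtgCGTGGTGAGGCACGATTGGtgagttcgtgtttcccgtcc
Creld2 (chr15:88819500-88819558, plus strand): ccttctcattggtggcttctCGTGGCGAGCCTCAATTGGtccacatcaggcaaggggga
Syvn1 (chr19:6046512-6046570, plus strand): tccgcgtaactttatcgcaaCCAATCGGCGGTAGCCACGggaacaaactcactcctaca
Calr (chr8:84847055-84847113, minus strand): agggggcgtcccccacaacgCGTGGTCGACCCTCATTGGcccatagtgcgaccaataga
Canx (chr11:50325780-50325838, minus strand): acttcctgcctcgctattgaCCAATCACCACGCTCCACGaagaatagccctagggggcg
Herpud1 (chr8:94386357-94386407, plus strand): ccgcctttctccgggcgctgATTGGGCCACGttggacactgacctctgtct

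In Hspa5 the element ended 47 bases before the RefSeq start site and in Syvn1 26 bases before it, whereas Hsp90b1 held 2 of them, on opposite strands. Of the 8 members with an ERSE, 7 passed the test of variation over the 6 times described next, with Canx the exception, as did 11 of the 21 members whose window lacked it. Among those 11 were Dnajb11 and Herpud1, which held the ERSE-II, and with either element counted 9 of 10 members passed. The difference between members with and without an element was not tested.

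The first comparison asked which members varied with the time of day, as the mean of both ages. Most had their highest mean at ZT18 (16 of 35) or ZT2 (10) and their lowest at ZT10 (18) or ZT6 (10). ZT14 was the highest time of 6 members, whereas others were low then, such as Calr (348 at ZT14 and 524 at ZT18). The median log2 deviation of the members from their means over all libraries was 0.16 and 0.32 in the young ZT14 libraries. It was -0.02 and -0.04 in the old ones, the first of them from the library low in mitochondrial RNA. ZT14 was picked here after the values were seen, and 0 of 35 members passed limma's test of age at that time. By limma's F test with Benjamini-Hochberg adjustment over all tested genes, 20 of 35 members (57.1%) varied over the 6 times, where 15.3% of all tested genes did. By their means, 28 of 35 were lowest at ZT6 or ZT10, as were 37.6% of all genes, and 32 of 35 were highest at ZT2, ZT14 or ZT18, as were 49.7%. The times in these 2 counts were chosen after the members' values were seen, so the counts are a description and not a test. The range over the times reached log2 1, a 2-fold change, in 11 members, against 13.9% of all genes, and its median was 0.77 against 0.51. Of the 20 calls, 14 held under all 36 alternatives, and 19 members passed without the 2 libraries named above, where Dnajc3 (adjusted p = 0.0852) and Ssr3 (0.0541) did not. Without old ZT10 replicate 1 or 2 the count was 21 or 20. The call of Pdia6 was lost without young ZT10 replicate 1 (adjusted p = 0.0526), and those of Dnajc3 without old ZT18 replicate 2 (0.0653), young ZT10 replicate 1 (0.053) or young ZT18 replicate 2 (0.0575). Edem1 lost its call without old ZT2 replicate 2 (0.0522), young ZT2 replicate 2 (0.0539) or young ZT6 replicate 1 (0.0508), and Ssr3 without old ZT10 replicate 2 (0.0503), either old ZT18 library (0.0538 and 0.0556) or young ZT10 replicate 1 (0.0552). With the deposited TPM unscaled the calls of Dnajc3 (0.298), Edem1 (0.3), Ssr1 (0.209) and Ssr3 (0.243) were lost. Dnajc3 and Edem1 were also lost with unscaled FPKM (0.0671 and 0.0981), and Dnajc3, Edem1 and Ssr3 with quantile normalization (0.157, 0.0765 and 0.0804). Hepatocyte markers did not pass this test (0 of 8), and 6 of 8 genes of feeding and fasting did. The part of feeding in the members' variation was not tested.

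**Figure D1:**
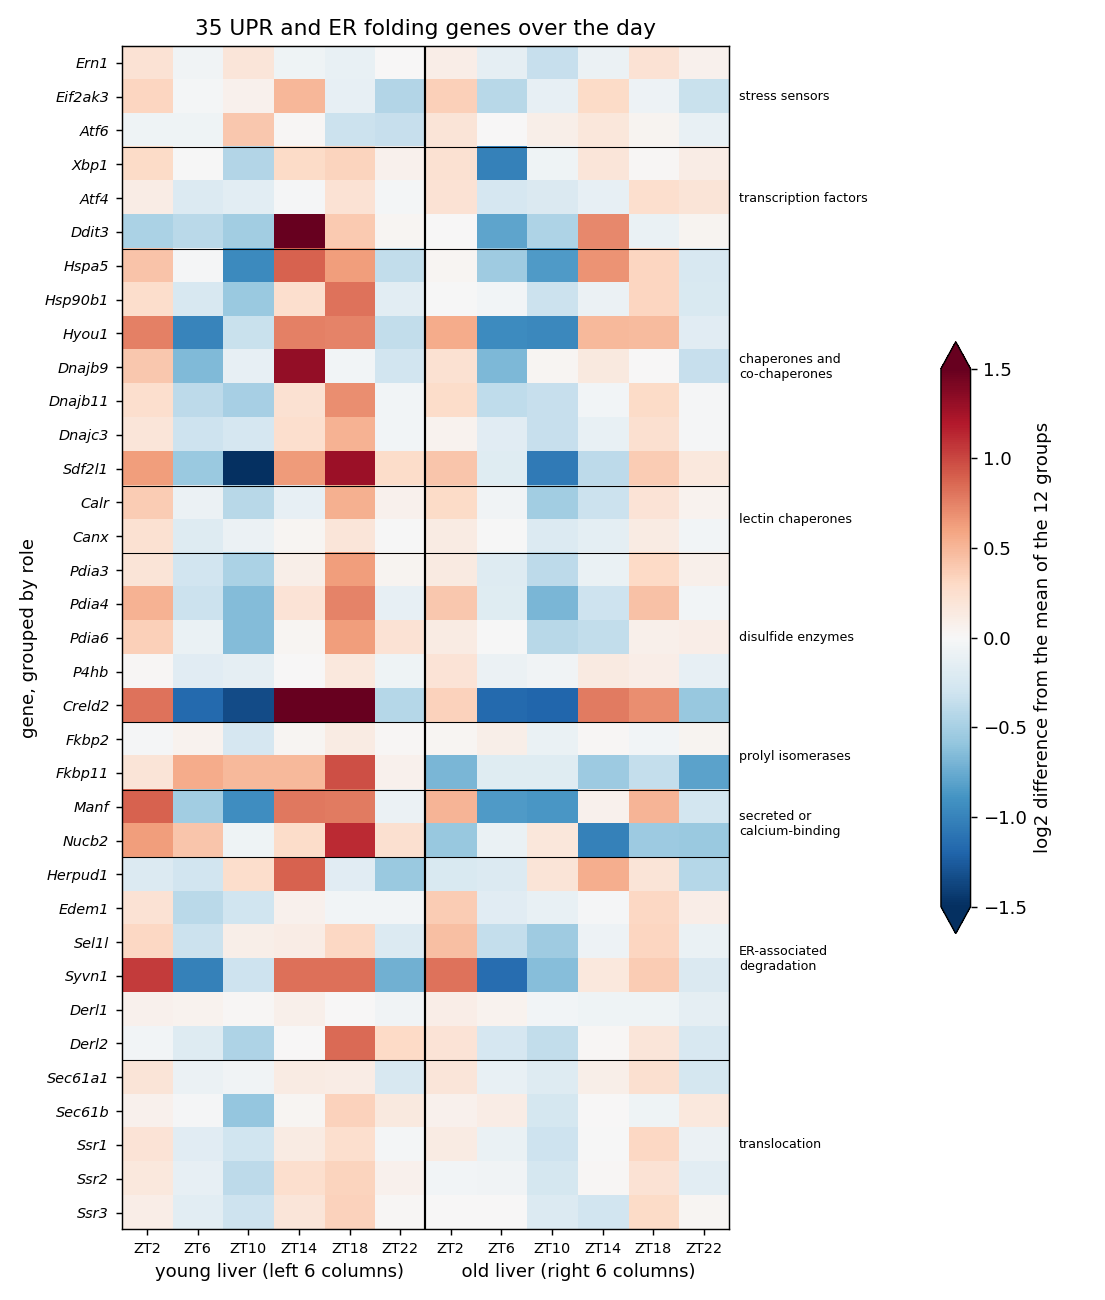
Each row is 1 of the 35 genes, grouped by role, and each column an age and time (mean of 2 libraries). Colour gives the log2 difference of log2(scaled TPM + 0.5) from the mean of the 12 groups, with differences beyond 1.5 shown at the end of the scale. Red columns at ZT2 and ZT18 and blue columns at ZT6 and ZT10 recur at both ages, most strongly for Creld2, Syvn1, Sdf2l1, Hyou1 and Manf. The ZT14 column is mostly red in young liver and mixed in old liver.

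Of the 3 sensors, 1 varied over the day. Eif2ak3 (PERK, the kinase that slows translation; chromosome 6, 70844515 to 70905245, plus strand, GRCm38, the build of all positions given here) averaged 6.4 ± 1.68 in young and 5.97 ± 1.86 in old (scaled TPM, mean ± SD over 12 libraries per age, times included). In young liver Eif2ak3 was at 6.54 and 8.89 at ZT2, 6.17 and 5.57 at ZT6, 7.09 and 5.55 at ZT10, 8.19 and 9.15 at ZT14, 4.98 and 5.92 at ZT18 and 5.29 and 3.47 at ZT22. At the old age it was at 7.67 and 7.99 at ZT2, 4.46 and 4.26 at ZT6, 5.76 and 5.19 at ZT10, 5.17 and 10.4 at ZT14, 5.29 and 6.06 at ZT18 and 4.17 and 5.17 at ZT22. The highest values were at ZT14 and ZT2 and the lowest at ZT22 and ZT6, with overlap between most times (adjusted p = 0.0342, 1.71-fold between the highest and lowest time by geometric means, a fold that like all those over the times is taken on log2(scaled TPM + 0.5)). That call was lost in 13 of the 24 fits that left out 1 library, at up to an adjusted p of 0.0814 without old ZT22 replicate 1. Ern1 (IRE1, which splices Xbp1 mRNA) averaged 12.2 ± 2.97 in young and 11.5 ± 2.03 in old, and Atf6, the membrane-bound factor cut in the Golgi, 15.8 ± 4.25 in young and 16.9 ± 2.87 in old. Neither passed the test of time (adjusted p = 0.942 and 0.64).

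Among the transcription factors, Ddit3 (CHOP, a factor linked to cell death under lasting ER stress; chromosome 10, 127290774 to 127296288, plus strand) varied over the day (adjusted p = 0.00512) and was highest at ZT14. In young liver Ddit3 was at 6.03 and 6.38 at ZT2, 9.75 and 4.31 at ZT6, 6.32 and 5.66 at ZT10, 28.8 and 24.7 at ZT14, 13.9 and 9.79 at ZT18 and 9.14 and 8.75 at ZT22. The old libraries held 9.4 and 8.23 at ZT2, 3.91 and 6.07 at ZT6, 10.7 and 3.57 at ZT10, 18.8 and 11.7 at ZT14, 10.5 and 6.39 at ZT18 and 9.47 and 8.68 at ZT22. At ZT14, 3 of the 4 libraries lay above each library of every other time, and the remaining one, old replicate 2 at 11.7, lay within their range. Levels by geometric mean went from 5.65 at ZT6 to 19.9 at ZT14, or 3.32-fold. Xbp1, the factor made active by IRE1 splicing, averaged 138 ± 27.4 in young and 126 ± 41.7 in old and did not pass the test of time (adjusted p = 0.12). These gene-level values do not separate its spliced from its unspliced form. Atf4, which is controlled mainly through translation, averaged 73.8 ± 10.6 in young and 75.7 ± 13.8 in old (adjusted p = 0.085).

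The 7 chaperones and co-chaperones all varied over the day. Hyou1, a large chaperone that exchanges nucleotide on BiP (chromosome 9, 44379490 to 44392369, plus strand), had the smallest p among them. In young liver Hyou1 was at 71 and 102 at ZT2, 19.6 and 32 at ZT6, 46.5 and 34 at ZT10, 63.2 and 113 at ZT14, 73.3 and 97 at ZT18 and 33.2 and 45 at ZT22. Old liver gave 58 and 94.5 at ZT2, 26.4 and 25 at ZT6, 24 and 27.1 at ZT10, 67.2 and 73.4 at ZT14, 66.8 and 72.5 at ZT18 and 39.5 and 49.6 at ZT22. All 12 libraries of ZT2, ZT14 and ZT18, at 58.0 to 113, lay above all 12 of ZT6, ZT10 and ZT22, at 19.6 to 49.6, a 3.09-fold change from ZT6 to ZT2 (adjusted p = 0.000113). This split of the times was chosen after the values were seen. It separated the libraries of Creld2, Hyou1 and Syvn1, 3 of 35 members, and of 0.0734% of all tested genes.

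Hspa5 (BiP, the main Hsp70 of the ER lumen; chromosome 2, 34771970 to 34777547, plus strand) went 3.21-fold from 166 at ZT10 to 534 at ZT14 (adjusted p = 0.00208). In young liver Hspa5 was at 344 and 505 at ZT2, 272 and 347 at ZT6, 181 and 141 at ZT10, 414 and 794 at ZT14, 499.8 and 461 at ZT18 and 239.6 and 241 at ZT22. For old mice the values were 329.8 and 306 at ZT2, 201 and 229.9 at ZT6, 179.8 and 165 at ZT10, 820.2 and 302 at ZT14, 388 and 389 at ZT18 and 294 and 234 at ZT22. All 4 libraries of ZT10, at 141 to 181, were below every library of the other times. That time was picked after the values were seen, and the share of all genes with such a gap was not counted. The 2 highest libraries, 794 in young replicate 2 and 820.2 in old replicate 1, were both of ZT14, and their replicates there were at 414 and 302. Without the old one and young ZT18 replicate 2, Hspa5 kept its call (adjusted p = 0.00264).

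Sdf2l1, a partner of ER J-domain proteins, spanned the widest range of the chaperones, 4.44-fold from 24.1 at ZT10 to 109 at ZT18 (adjusted p = 0.00201), and averaged 81 ± 49.5 in young and 62 ± 27.4 in old. Hsp90b1, the ER form of Hsp90, averaged 624 ± 210.0 in young and 553 ± 103 in old and went 2.01-fold from ZT10 to ZT18 (adjusted p = 0.00155). The J-domain proteins that bring clients to BiP had their highest levels at different times. Dnajb9 was highest at ZT14 (91, lowest 34.2 at ZT6), whereas Dnajb11 (43.2 to 81.9) and Dnajc3 (76 to 122) went from a low at ZT10 to a high at ZT18. Adjusted p-values were 0.0132, 0.00016 and 0.0197. Over all times Dnajb9 averaged 66.6 ± 37.4 in young and 52.7 ± 14.6 in old, Dnajb11 62.6 ± 20 in young and 57.6 ± 11.3 in old, Dnajc3 100.3 ± 23.9 in young and 90.6 ± 13.2 in old, Hyou1 60.9 ± 30.9 in young and 52 ± 23.6 in old and Hspa5 370.0 ± 180.4 in young and 319.9 ± 174 in old.

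**Figure D2:**
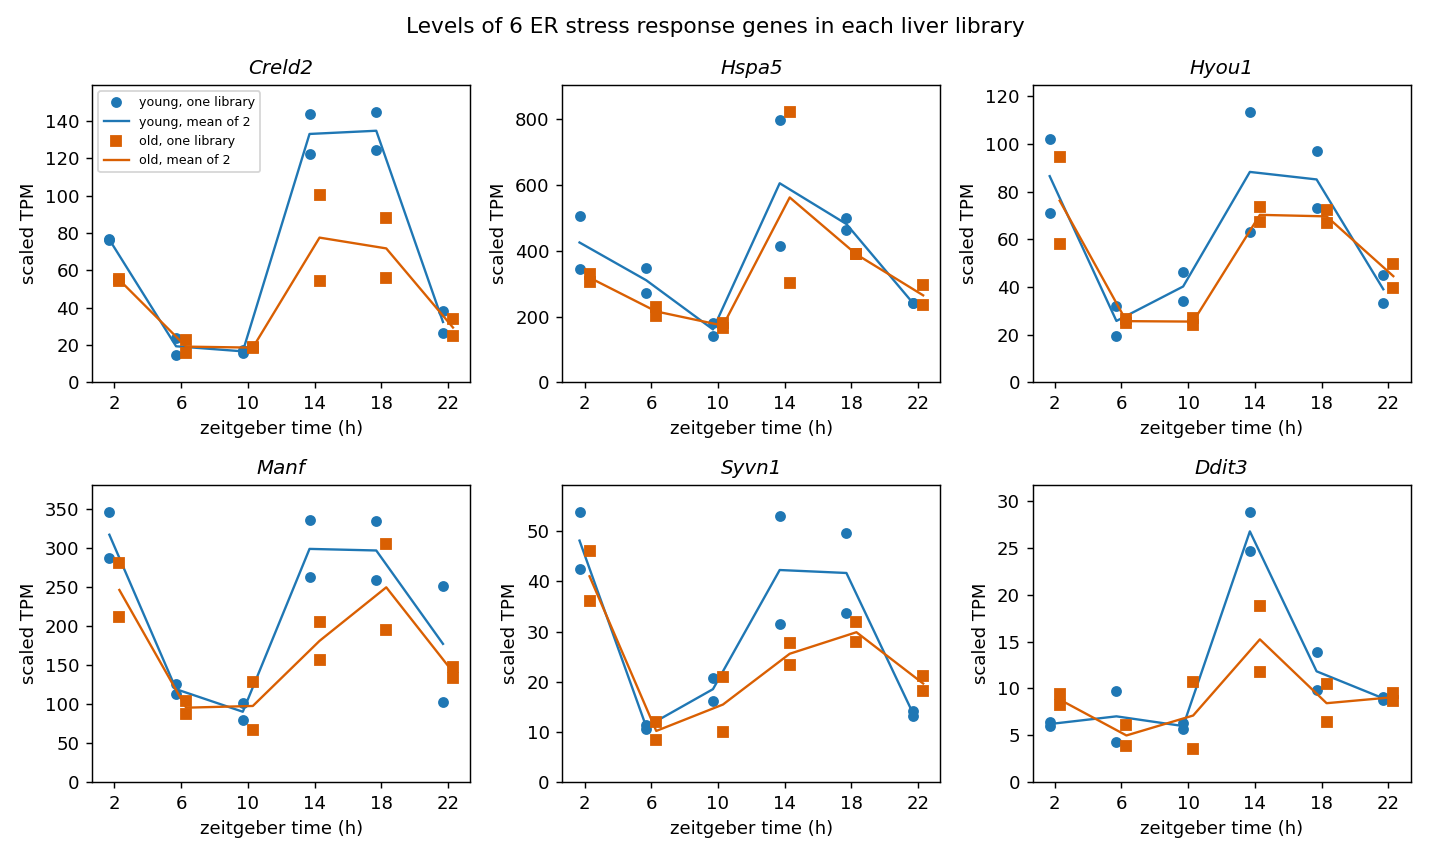
Scaled TPM (y axis, from 0) against zeitgeber time in hours for Creld2, Hspa5, Hyou1, Manf, Syvn1 and Ddit3. Points are single libraries, lines join the means of 2 libraries, and young (circles) and old (squares) are set slightly apart. Creld2 drops to 15.0 to 23.8 at ZT6 and ZT10 and reaches 54.5 or more at ZT2, ZT14 and ZT18 at both ages, and Ddit3 has its maximum at ZT14.

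The lectin chaperones hold newly made glycoproteins. Calr (calreticulin; chromosome 8, 84841850 to 84846934, minus strand) varied over the day (adjusted p = 0.0011). In young liver Calr was at 530.1 and 523 at ZT2, 306 and 475 at ZT6, 303 and 307 at ZT10, 368 and 380.0 at ZT14, 609 and 564 at ZT18 and 427 and 419 at ZT22. The old values were 484 and 510.0 at ZT2, 438 and 352 at ZT6, 270.3 and 297 at ZT10, 321 and 326 at ZT14, 509 and 430.4 at ZT18 and 412 and 429 at ZT22. The 4 libraries of ZT10 lay between 270.3 and 307, a range that held 1 library of another time, young ZT6 replicate 1 at 306, and the highest values were at ZT18 and ZT2 (1.78-fold). Canx (calnexin, the membrane-bound form) averaged 176 ± 28.8 in young and 169 ± 21.4 in old, ranged 1.25-fold and did not pass (adjusted p = 0.474).

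Among the disulfide enzymes 4 of 5 varied over the day. Creld2, an ER protein with disulfide isomerase-like motifs (chromosome 15, 88819646 to 88826681, plus strand), had the smallest p of all 35 members and the widest range, 5.5-fold (adjusted p = 7.79e-07). In young liver Creld2 was at 76.7 and 76.4 at ZT2, 15 and 23.8 at ZT6, 17.6 and 15.7 at ZT10, 144 and 122 at ZT14, 145 and 125 at ZT18 and 38.2 and 26.6 at ZT22. In the old group it measured 55.3 and 54.5 at ZT2, 22.6 and 15.8 at ZT6, 18.4 and 19 at ZT10, 101 and 54.6 at ZT14, 87.9 and 55.7 at ZT18 and 34.2 and 24.6 at ZT22. All 12 libraries of ZT2, ZT14 and ZT18, at 54.5 to 145, were above all 12 of the other times, at 15.0 to 38.2. At ZT2, ZT14 and ZT18 both young libraries were above both old ones. This gap between ages was picked out after the values were seen, and the share of all genes with such a gap was not counted. By geometric means the range was 7.87-fold in young and 3.89-fold in old. Creld2 did not pass the test of age over the day. The test of whether the age difference varied over the times passed for 0 of 35 members (0.0163% of all genes).

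The classical isomerases had smaller ranges. Pdia4 went 2.4-fold (79.9 at ZT10 to 193 at ZT18, adjusted p = 0.000116). Pdia3, which works with the lectin chaperones, went 1.86-fold and Pdia6 1.85-fold between the same times (adjusted p = 0.000777 and 0.0114). P4hb, the most abundant disulfide isomerase of the list, averaged 598 ± 51.8 in young and 624 ± 72 in old with a 1.2-fold range and did not pass (adjusted p = 0.239). Over all times Creld2 averaged 68.8 ± 52.8 in young and 45.3 ± 28 in old, Pdia3 254 ± 69 in young and 239 ± 40.8 in old, Pdia4 142 ± 51.1 in young and 127 ± 36.2 in old and Pdia6 242 ± 69 in young and 212 ± 42.8 in old.

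Neither prolyl isomerase passed the test of time: Fkbp2 averaged 147 ± 28.2 in young and 149 ± 25.6 in old (adjusted p = 0.943), and Fkbp11 (adjusted p = 0.497) is described with age. Of the secreted or calcium-binding members Manf did and Nucb2 (adjusted p = 0.694) did not. Manf, a small ER protein that can be secreted and binds BiP (chromosome 9, 106838312 to 106891979, minus strand), averaged 216 ± 104 in young and 168 ± 73.4 in old. In young liver Manf was at 287 and 346 at ZT2, 126 and 113 at ZT6, 101 and 79.6 at ZT10, 335 and 262 at ZT14, 335 and 259 at ZT18 and 251 and 103 at ZT22. Old libraries were at 280.2 and 212 at ZT2, 104 and 86.7 at ZT6, 128 and 67.2 at ZT10, 205 and 157 at ZT14, 304 and 194 at ZT18 and 148 and 134 at ZT22. Libraries of ZT2, ZT14 and ZT18 were at 157 to 346, and of the other 12 libraries 1, young ZT22 replicate 1 at 251, reached that range (3.03-fold, adjusted p = 0.000781).

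In ER-associated degradation, which ubiquitinates misfolded proteins for the proteasome, 3 of 6 members varied. Syvn1, the ubiquitin ligase HRD1 (chromosome 19, 6046576 to 6053712, plus strand), changed most, 4.04-fold (adjusted p = 5.25e-05). In young liver Syvn1 was at 42.4 and 53.9 at ZT2, 11.5 and 10.6 at ZT6, 20.8 and 16.2 at ZT10, 31.6 and 53 at ZT14, 33.7 and 49.7 at ZT18 and 14.2 and 13.1 at ZT22. The corresponding old levels were 36 and 46 at ZT2, 12.1 and 8.38 at ZT6, 10.1 and 20.9 at ZT10, 23.4 and 27.8 at ZT14, 31.8 and 27.9 at ZT18 and 18.2 and 21.1 at ZT22. Libraries of ZT2, ZT14 and ZT18 lay at 23.4 to 53.9 and the other 12 at 8.38 to 21.1, without overlap. Sel1l, the adaptor of HRD1, averaged 35.9 ± 10.3 in young and 33.4 ± 9.45 in old, was highest at ZT2 and lowest at ZT6 (1.65-fold) and did not pass (adjusted p = 0.211). Herpud1, an organiser of the ligase complex, had a different profile, with its high at ZT14 (213) and its low at ZT22 (91.8, 2.31-fold, adjusted p = 0.00117). Edem1, a lectin that takes glycoproteins to degradation, went 1.5-fold from ZT6 to ZT2 (adjusted p = 0.0183). The channel proteins Derl1 (57.7 ± 2.72 in young and 55.7 ± 3.91 in old) and Derl2 (63.5 ± 30.1 in young and 54.6 ± 13.3 in old) did not pass (adjusted p = 0.645 and 0.0823). Over all times Herpud1 averaged 137 ± 56.6 in young and 135 ± 37.2 in old, Edem1 40.9 ± 7.04 in young and 46 ± 7.89 in old and Syvn1 29.2 ± 17 in young and 23.6 ± 11.1 in old.

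Of the translocation genes, which bring new chains into the ER, 2 of 5 varied, both subunits of the translocon-associated protein complex. Ssr1 (chromosome 13, 37971401 to 37994190, minus strand) had the smallest p. In young liver Ssr1 was at 24.1 and 22.4 at ZT2, 15.9 and 19.7 at ZT6, 16.6 and 15.7 at ZT10, 21.2 and 22.7 at ZT14, 23.1 and 25 at ZT18 and 20.3 and 19.1 at ZT22. Old mice had 21 and 22.7 at ZT2, 19.2 and 18.3 at ZT6, 15.4 and 16.7 at ZT10, 18.1 and 22 at ZT14, 25.6 and 24.4 at ZT18 and 18.8 and 18.8 at ZT22. The ZT10 libraries (15.4 to 16.7) lay below all 8 of ZT2 and ZT18, and the range was 1.51-fold (adjusted p = 0.00462). These times were also picked after the values were seen, with no share counted over all genes. Ssr3 averaged 185 ± 30.9 in young and 178 ± 25.2 in old and went 1.49-fold (adjusted p = 0.0177). Ssr2 (95.8 ± 20.9 in young and 88.7 ± 13.8 in old) and the channel subunits Sec61a1 (73.9 ± 12.7 in young and 73 ± 11.9 in old) and Sec61b (78.3 ± 24.9 in young and 78.8 ± 25.1 in old) did not pass, at adjusted p-values of 0.142, 0.181 and 0.796.

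The shape of these profiles was described by fitting a 24 h and a 12 h component together. The swing of a component is its fitted log2 difference from peak to trough. For the 24 h component, 19 of 35 members passed limma's test on the mean of both ages, where 23.0% of all genes did, and their peaks lay between 12.9 and 22.4 h after lights on, with a median of 19.9 h. The largest 24 h swings were those of Creld2 (2.02 ± 0.20 SE, peak at 18.2 h, adjusted p = 3.27e-06), Sdf2l1 (1.62 ± 0.24 SE, 20.9 h) and Ddit3 (1.23 ± 0.27 SE, 16.4 h). Herpud1 peaked earliest, at 12.9 h (0.98 ± 0.13 SE, adjusted p = 9.9e-05). The other members named by smallest p were Pdia3, Dnajb11, Pdia4, Calr and Pdia6, with swings of 0.69, 0.74, 0.87, 0.68 and 0.73. Of the 19, 11 passed under all 37 alternatives, and 19 members passed without the 2 libraries that stand apart.

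For the 12 h component, 6 of 35 members passed on the mean of both ages (17.1%), where 0.816% of all genes did, and 22 of 35 had an unadjusted p under 0.05, against 10.6%. The 6 were Creld2, with a swing of 2.04 ± 0.20 SE and an adjusted p of 5.51e-05, Hspa5 (1.3 ± 0.20 SE, 0.00799), Hyou1 (1.32 ± 0.23 SE, 0.0218), Manf (1.28 ± 0.22 SE, 0.0243), Pdia4 (0.76 ± 0.14 SE, 0.036) and Hsp90b1 (0.64 ± 0.12 SE, 0.0394). Their peaks lay between 2.47 and 4.37 h after lights on and again 12 h later. Syvn1 and Dnajb9 had swings of 1.45 ± 0.30 SE and 1.06 ± 0.22 SE and adjusted p-values of 0.0572 and 0.0568. Creld2 and Hspa5 passed under all 37 alternatives. The count fell to 2 without young or old ZT2 replicate 2, and to 3 without old ZT2 replicate 1, young ZT10 replicate 2, young ZT14 replicate 2, young ZT22 replicate 2 or either old ZT22 library, and was 4 without the 2 libraries that stand apart. With 6 times, a 12 h component cannot be told apart from a 24 h wave of another shape.

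**Figure D3:**
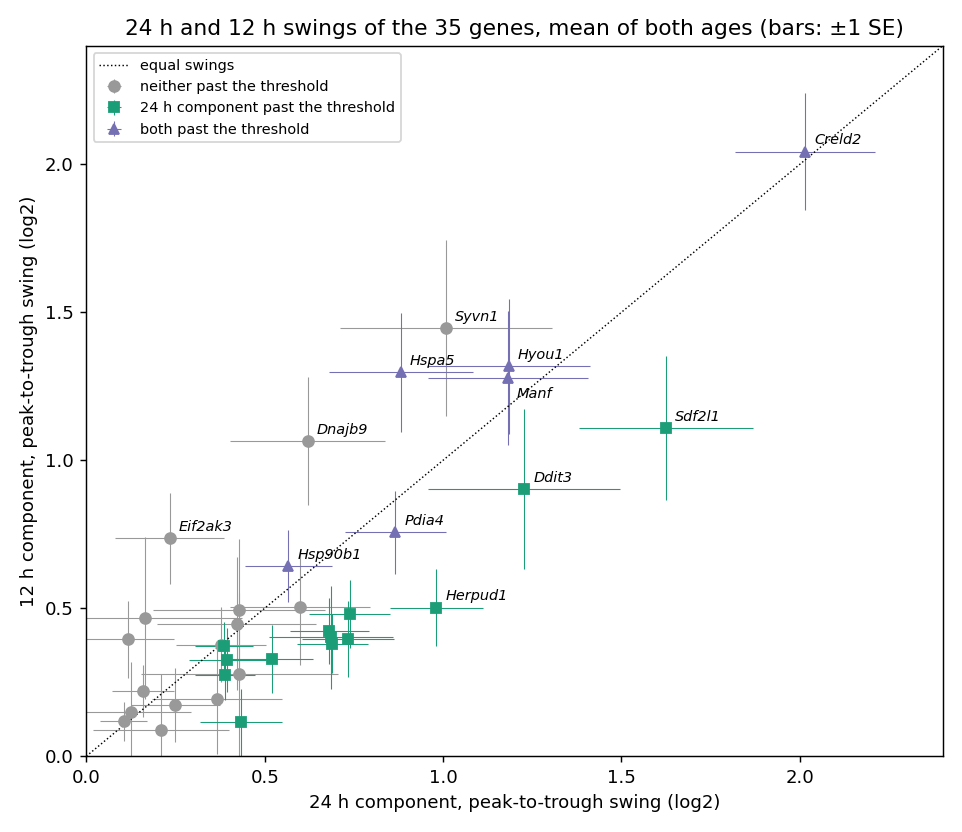
Peak-to-trough swing (log2) of the 12 h component (y axis) against that of the 24 h component (x axis) for each of the 35 genes, as the mean of both ages. Bars are 1 SE and marker shapes show which components passed the limma test. Creld2 is farthest out at 2.02 and 2.04, and Syvn1, Hspa5 and Dnajb9 lie above the line of equal swings, whereas Sdf2l1, Ddit3 and Herpud1 lie below it.

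The second comparison asked which members differed in level between old and young liver over the day. Fkbp11 and Nucb2 were lower in old and 0 members were higher. By limma, 2 of 35 members (5.71%) passed, where 1.64% of all genes did (0.498% lower and 1.14% higher). Of those calls over all genes 69.7% were higher in old, and 85.6% and 81.9% were with the deposited TPM and FPKM unscaled. Fkbp11, which turns proline bonds in newly made secretory proteins (chromosome 15, 98724373 to 98728198, minus strand), averaged 29.4 ± 8.8 in young and 15.7 ± 6.19 in old. In young liver Fkbp11 was at 19.8 and 27.9 at ZT2, 31.8 and 29.4 at ZT6, 27.7 and 30.3 at ZT10, 29 and 28.9 at ZT14, 53.9 and 30.4 at ZT18 and 26 and 17.7 at ZT22. At 19 months it was at 17.2 and 9.07 at ZT2, 27.2 and 11.9 at ZT6, 27.6 and 11.8 at ZT10, 18.6 and 10.3 at ZT14, 16.3 and 15.4 at ZT18 and 12.4 and 10.9 at ZT22. Of the 12 old libraries, 9 were below every young one. The remaining 3, at 27.2, 27.6 and 18.6, were replicate 1 at ZT6, ZT10 and ZT14. The log2 difference was -0.92 ± 0.18 SE with an adjusted p of 0.012, and it passed under all 37 alternatives (0.0019 to 0.0314).

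Nucb2, a calcium-binding protein that gives rise to nesfatin-1 (chromosome 7, 116504369 to 116540554, plus strand), was the least abundant member, at 5.47 ± 1.77 in young and 3.0 ± 1.78 in old. In young liver Nucb2 was at 6.52 and 5.69 at ZT2, 5.08 and 5.28 at ZT6, 3.66 and 3.47 at ZT10, 4.15 and 5.17 at ZT14, 8.89 and 8.68 at ZT18 and 4.59 and 4.45 at ZT22. Levels in old liver were 3.27 and 1.7 at ZT2, 7.27 and 1.55 at ZT6, 4.7 and 3.94 at ZT10, 1.56 and 1.65 at ZT14, 1.92 and 3.0 at ZT18 and 4.05 and 1.36 at ZT22. Of the 12 old libraries, 8 were below every young one, and old ZT6 replicate 1, at 7.27, exceeded 10 of the 12 young ones. The log2 difference was -0.87 ± 0.20 SE with an adjusted p of 0.0316. The call was lost in 18 of the 24 fits that left out 1 library, at up to 0.0725 without old ZT2 replicate 2, and it held only without either old ZT6 library, old ZT2, ZT10 or ZT22 replicate 1, or old ZT18 replicate 2. It was also lost without the 2 libraries that stand apart (0.0954). Without all ZT10 libraries Nucb2 and Fkbp11 both passed (0.0387 and 0.0207).

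**Figure D4:**
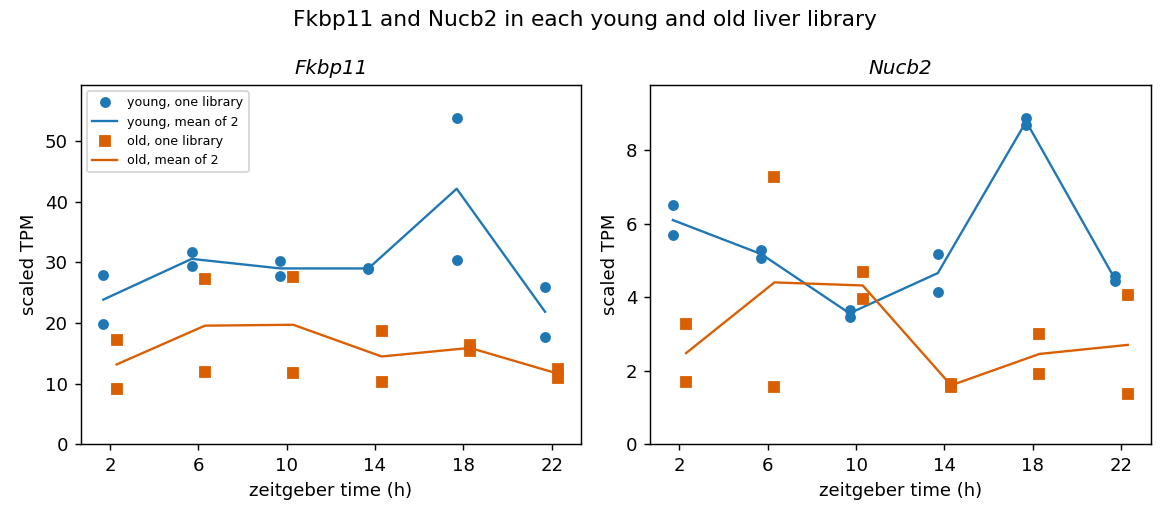
Scaled TPM (y axis, from 0) of Fkbp11 and Nucb2 against zeitgeber time in hours. Points are single libraries and lines join means of 2, with young as circles and old as squares. Most old libraries lie below the young ones, and the old replicates differ widely at ZT6, where Fkbp11 is at 27.2 and 11.9 and Nucb2 at 7.27 and 1.55.

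The other 33 members did not pass. Creld2 averaged 45.3 in old and 68.8 in young (log2 -0.37 ± 0.12 SE, adjusted p = 0.193), and Edem1 had the largest positive difference (0.17 ± 0.07 SE, adjusted p = 0.325). By sign alone 29 of 35 differences were negative (old minus young), with the share over all genes not counted. The median of the 35 differences was log2 -0.10, against -0.01 over all tested genes. The scaling moved this median: it was 0.0038 with the deposited TPM and -0.0337 with the deposited FPKM, where that of all genes was 0.09 and 0.05, and it was -0.0627 without young ZT6 replicate 2. With the deposited TPM 17 of 35 were lower, so the shared sign holds relative to the other genes of a library and not on every scale. Some markers of other cells and of inflammation were higher in old in the same libraries, and others were not. Past the threshold were 4 of 5 plasma cell markers tested (median log2 difference 1.94), 2 of 3 neutrophil markers (S100a8 2.69 and S100a9 1.45), 1 of 8 macrophage markers (Marco 2.01), 1 of 2 cholangiocyte markers (Sox9 0.45) and 3 of 10 acute phase genes (Lcn2 2.66, Saa3 0.90 and Hp 0.68). In these lists Derl3 (-0.26, plasma cells), Timd4 (-0.06, macrophages) and Crp (-0.04, acute phase) were lower in old without passing. No tested marker of hepatocytes or of acinar, endothelial, stellate, T and NK or erythroid cells passed. All tested acinar and erythroid markers were lower in old by sign. The part of other cells and of inflammation in the members' values was not tested.

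At single times, 0 members passed limma's test of age after adjustment, where 0% (ZT2 and ZT6), 0.530% (ZT10), 0.0408% (ZT14), 0.0245% (ZT18) and 0.00816% (ZT22) of all genes did. At ZT14, 32 of 35 differences were negative, at a median of log2 -0.22, and 8 had an unadjusted p under 0.05 (22.9%, against 7.86% of all genes). Those with the smallest p were Dnajb9 (-1.17 ± 0.36 SE, adjusted p = 0.369), Ssr3 (-0.47 ± 0.15 SE) and Creld2 (-0.84 ± 0.30 SE). At ZT18, 25 of 35 were negative, at a median of -0.28, and 7 had an unadjusted p under 0.05 (20%, against 4.64%), led by Nucb2, Creld2 (-0.94 ± 0.30 SE, adjusted p = 0.824) and Fkbp11. The shares of all genes with a negative difference at ZT14 and ZT18 were not counted. At ZT2, ZT6, ZT10 and ZT22 the medians were -0.09, 0.04, 0.06 and 0.02, and 1, 1, 0 and 0 members had an unadjusted p under 0.05 (4.01%, 4.04%, 7.92% and 3.04% of all genes). Without the 2 libraries that stand apart, the medians at ZT14 and ZT18 were -0.38 and -0.22, and 9 members at each time had an unadjusted p under 0.05. With the deposited TPM unscaled, the ZT14 median was 0.16 for the members and 0.36 for all genes. The ZT14 median was also -0.38 without young or old ZT14 replicate 1, and that at ZT18 was -0.15 without old ZT18 replicate 2. The count at an unadjusted p under 0.05 fell to 4 at ZT14 without young or old ZT14 replicate 2, and to 2 at ZT18 without young ZT18 replicate 1 or old ZT18 replicate 2. The age difference itself did not vary over the times past the threshold for any member (0 of 35, 0.0163% of all genes, and 0 of 35 at an unadjusted p under 0.05, against 3.60%).

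**Figure D5:**
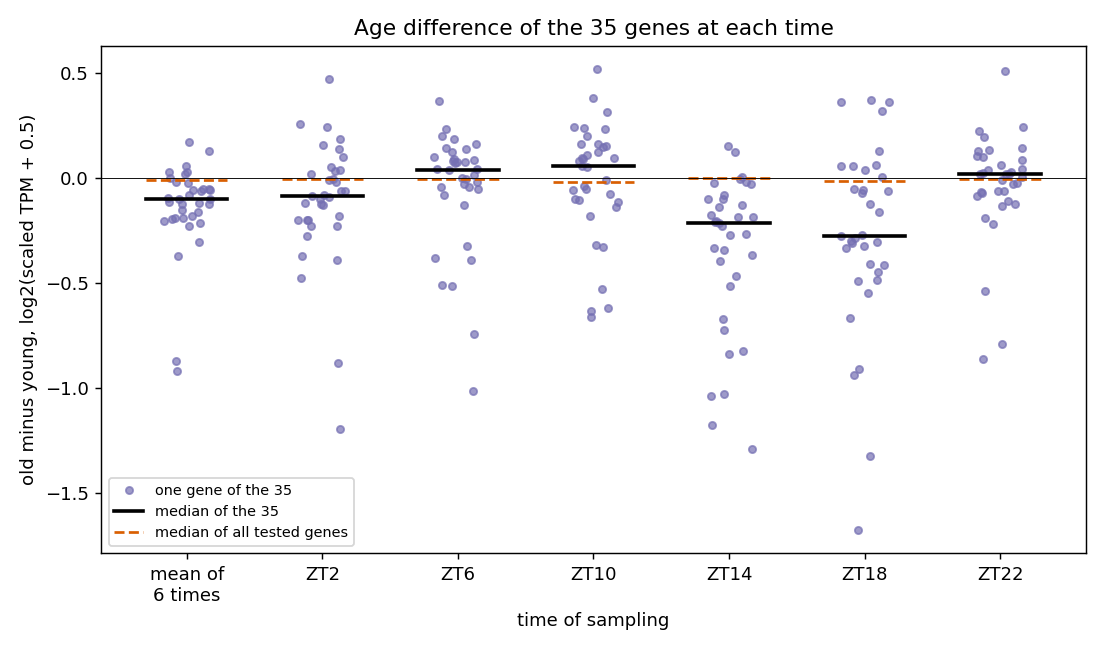
Log2 difference of old minus young, in log2(scaled TPM + 0.5) (y axis), for the mean of the 6 times and for each time (x axis). Each point is 1 of the 35 genes, the black bar is their median and the dashed bar the median of all tested genes. The black bar is lowest at ZT18 (-0.28) and ZT14 (-0.22) and near 0 at ZT6, ZT10 and ZT22. None of the single-time differences passed the adjusted threshold.

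Rhythms were also compared between ages. The 24 h component passed in 14 members in young, where 11.9% of all genes did, and in 6 in old, where 9.99% did. In young the 8 with the smallest p were Creld2, Sdf2l1, Herpud1, Pdia3, Dnajb11, Pdia6, Hsp90b1 and Pdia4, and in old the 6 were Creld2, Herpud1, Calr, Pdia4, Pdia3 and Hyou1. These counts depended on the setting. In young and old they were 16 and 11 with array weights, 18 and 10 with the replicate block, 6 and 2 with the deposited TPM unscaled, 11 and 2 with FPKM, and 6 and 0 with 24 h terms only. The young count fell to 9 without young ZT18 replicate 1 and the old count to 3 without old ZT2 replicate 1. Without the 2 libraries that stand apart the counts were 10 and 4, and those for 12 h were 2 and 0. The 12 h component passed in young for Creld2 alone (swing 2.43 ± 0.28 SE, adjusted p = 0.000582, against 0.261% of all genes) and in old for 0 members, against 0.00816%. At an unadjusted p under 0.05 there were 18 members in young (6.94% of all genes) and 11 in old (7.22%). Creld2 in old had a swing of 1.66 ± 0.28 SE (adjusted p = 0.0836). The young count was 2 without young ZT14 replicate 1 or either old ZT14 library and 3 without young ZT6 or ZT22 replicate 1, and the old count was 1 without old ZT14 replicate 2.

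The median swing of the 35 members was log2 0.65 in young and 0.52 in old for the 24 h component, and 0.51 and 0.39 for the 12 h component, and over all genes it was 0.44 and 0.39, and 0.29 and 0.28. The swing was smaller in old in 22 of 35 members at 24 h and in 26 of 35 at 12 h. The share of all genes with a smaller swing in old was not counted. The test of the difference between ages passed for 0 members at either period (0.0245% and 0.00816% of all genes), with 1 member at 24 h (4.24% of all genes) and 0 at 12 h (2.97%) at an unadjusted p under 0.05, so a difference in rhythm with age was not shown for any member. Pdia4, for example, had a 24 h swing of 0.92 ± 0.20 SE in young and 0.88 ± 0.20 SE in old, and Hspa5 a 12 h swing of 1.58 ± 0.29 SE and 1.04 ± 0.29 SE.

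Further genes of the pathway were read beside the members, 98 in 7 lists, of which 92 were tested. With age 0 of 92 passed. Over the 6 times 22 (23.9%) varied, against 15.3% of all genes, and 5 passed for the 12 h component on the mean of both ages (5.43%, against 0.816%). Those 5 peaked between 1.87 and 2.53 h after lights on and again 12 h later: Srprb and Srp68, of the signal recognition system that docks ribosomes at the ER (swings 1.14 and 0.66), Atf6b, the paralog of Atf6 (1.02), Ube2g2, an E2 enzyme of ER-associated degradation (0.99), and Mogs, the glucosidase that trims new glycans (0.57). Atf6b went from 7.09 at ZT10 to 18.7 at ZT2 by geometric means, whereas Atf6 itself did not pass.

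Of 11 tested targets of PERK and ATF4, 4 varied over the day, Trib3, Atf5, Chac1 and Cth, with 24 h peaks from 0.12 to 5.95 h, against 12.9 to 22.4 h in the members that passed. That difference was not tested, and the other 7 targets did not pass the test of time. Among them Atf3, Nupr1 and Slc3a2 had their highest mean at ZT14. Trib3, a pseudokinase induced through ATF4 and CHOP, was at 9.67 at ZT6 and 0.649 at ZT14 by geometric means, with a 24 h swing of 3.01 and a peak at 5.95 h. Chac1 (a glutathione-degrading enzyme) and Sesn2 (sestrin 2) peaked at 5.79 and 6.15 h, Atf5 at 1.2 h and Cth (cystathionine gamma-lyase) at 0.12 h. Trib3, Chac1, Atf5 and Cth were all lowest at ZT14, the time at which Ddit3 was highest. Trib3 and Chac1 were near the floor there, at 0.649 and 0.469 by geometric means, where 0.5 is added before the log. Atf5 and Cth were well above it, at 84.4 and 217. Chac1 was low throughout, with its highest mean at 2.28, at ZT10. Among transport genes that passed for 24 h, Mcfd2 and Lman2, which carry glycoproteins to the Golgi, peaked at 19.7 and 19.0 h and Sar1b at 19.6 h. Ostc and Rpn1, of the oligosaccharyltransferase, peaked at 19.9 and 21 h. These peaks lay near the median of the members that passed (19.9 h), whereas Lman1, of the same transport list, peaked earlier, at 14.9 h.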

How the data were processed

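Polyadenylated RNA of 24 liver libraries was selected with oligo-dT and read from 1 end, 50 bases long and with strand kept, per the labels' protocols. HISAT2, StringTie and the GRCm38 build are named in the submitters' processing notes, with versions not given in the sources used here. TPM and FPKM (levels per transcript length and depth) and coverage (read depth per base, a signal without scaling) were deposited by the authors for each gene. Depth (8.70 to 13.7 M reads) came from the highest ratio of coverage to FPKM in each deposited library. That ratio was low for Manf (0.19 of the highest) and Hyou1 (0.37), which is why scaled coverage was also tried. No read counts were used, so counting error is unknown for single values. Entries that shared a gene identifier (18 to 22 per library) were added up. Median-of-ratios factors (0.813 to 1.22), from 13270 genes above 0 in all libraries, scaled the TPM. Genes averaging 1 TPM or more were tested on log2(scaled TPM + 0.5) with limma 3.58.1 in R 4.3.3 (empirical Bayes, intensity trend), so folds of low genes are understated. A 12-group model gave age and time tests, and a model with 24 h and 12 h cosine and sine per age gave components. Calls needed an adjusted p (Benjamini-Hochberg, over all 12261 genes) under 0.05, and the steps were tested on simulated data. Members, lists and tests were chosen with earlier results of these data known. Values in every library are given for members past the age threshold and, in each of 9 roles, for the member with the smallest p for time (Hspa5, and other members singled out for one value or for a small p at one time, were chosen after their values were seen). Members past a harmonic threshold are named up to 8 by p, and other pathway genes up to 4 per list. Alternatives were unscaled TPM and FPKM, quantile normalization, other pseudocounts and filters, no trend, array weights, a replicate block, each library left out, no ZT10, other harmonic models and, added after seeing the data, scaled coverage and leaving out 2 libraries. Promoter windows were read from RefSeq tables for GRCm38.p6. Tables and figures were made in Python 3.11.15 (numpy 2.4.6, pandas 2.3.3, matplotlib 3.10.9).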

Additional observations from a re-analysis of the deposited data

How the results depend on the processing

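Counts of members past the threshold are compared here by setting. For the age difference over the day (2 members), the count was 1 with no filter on low values, with a filter at 5 TPM (which removes Nucb2), with array weights and without the 2 libraries that stand apart, and 1 to 2 with 1 library left out. For the 24 h component in young (14), it was 6 with unscaled TPM, 6 with 24 h terms only and 9 to 16 with 1 library left out. For the 24 h component in old (6), it was 2 with unscaled TPM, 2 with unscaled FPKM, 11 with array weights, 10 with the replicate block, 0 with 24 h terms only and 3 to 8 with 1 library left out. For the 12 h component in young (1), it was 2 with a filter at 5 TPM, 9 with array weights, 4 with the replicate block, 2 with the spread of the 12-group model, 2 with scaled coverage, 2 without the 2 libraries and 1 to 3 with 1 library left out. For the 12 h component in old (0), it was 1 with unscaled TPM, unscaled FPKM or the replicate block, and 0 to 1 with 1 library left out. For the 12 h component on the mean of both ages (6), it was 3 with no filter, 13 with array weights, 11 with the replicate block, 10 with scaled coverage and 2 to 7 with 1 library left out. The median age difference of the members (-0.10) was 0.0038 with unscaled TPM, -0.0337 with unscaled FPKM and -0.1317 to -0.0627 with 1 library left out. Counts for variation over the 6 times (17 to 21 with 1 library left out) and for the 24 h component on the mean of both ages (17 to 21) stayed within 1.5 times of 20 and 19 in the settings run, and the other tests with 0 members stayed at 0 in them. The cause of these shifts was not tested. The replicate block follows from a shared number only. Deviations of same-numbered libraries correlated over 0.1 in 52 of 66 pairs of groups (median 0.186, lowest -0.158, highest 0.451). Same-numbered libraries thus shared part of their deviation in most pairs of groups. The main models have no term for the number, and the labels do not say what it stands for. With 2 libraries per group and read counts unknown, small differences could not be detected, and nothing is shown about absence.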

Other observations

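Outside the members, further tested genes had every library of ZT2, ZT14 and ZT18 above every library of ZT6, ZT10 and ZT22, a split chosen after the values were seen. Among them were Alg12, a mannosyltransferase that builds the glycan precursor in the ER (lowest 3.96 and highest 3.33 scaled TPM in the respective sets), Hspa13, an Hsp70 of the microsomes (23.4 and 22.4), Ubxn4, an ER membrane protein that recruits the degradation ATPase p97 (41.8 and 36.7), Hsph1, a cytosolic partner of Hsp70 (21 and 19.4), and Tubg1 (gamma-tubulin; 14.1 and 13.4).

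Some members differed between replicate numbers in nearly every group. Sec61b, Manf and Fkbp2 were lower in replicate 2 in 11 of 12 groups, by a mean of log2 0.66, 0.42 and 0.39, while Sel1l, Atf6 and Ern1 were higher in replicate 2 in 11 of 12, by 0.45, 0.44 and 0.41. Fkbp11 was lower in replicate 2 in 10 of 12 groups, by a mean of 0.14 in young and 0.72 in old. What the replicate number stands for is not given in the labels.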
